A study of Mus musculus with 2 samples.

Results

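Astrocytes were picked out of nuclear RNA profiles of the hippocampus of 3-month-old mice in which Stra8 had been deleted with Nestin-Cre (genotype Stra8L/-; Nestin-Cre, per the labels). There was 1 male and 1 female library and no library of another genotype, so every nucleus carries the Stra8L/- alleles and the Cre, and male astrocytes were set against female ones. Nestin-Cre is known to be active in neural progenitors, which give rise to neurons and to astrocytes and oligodendrocytes; the sources used here do not say how many animals went into each library. The astrocyte nuclei were chosen by measured expression. A barcode was taken as one when it had 500 genes or more, no more than 5% mitochondrial UMIs (unique molecular identifiers, each marking 1 captured RNA molecule), at most 8000 UMIs in all, at least 5 UMIs over 7 marker genes with at least 3 of them detected, and at most 1 UMI over the 3 oligodendrocyte genes Mog, Mag and Aspa. The 7 markers were Gli3, Slco1c1, Aqp4, Rorb, Gja1, Fam20a and Atp13a4. This rule found 2357 of the 35285 nuclei that passed the gene and mitochondrial limits, 939 of 16034 male and 1418 of 19251 female nuclei.

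Astrocytes are glial cells that clear glutamate and potassium from the space around synapses, feed neurons with lactate and lipids, and wrap capillaries with endfeet rich in the water channel Aqp4. They are coupled to each other by gap junctions of the connexins Gja1 and Gjb6, and their regional origin in the embryo leaves a lasting mark on which transporters and transcription factors they express. They also respond to circulating hormones, among them glucocorticoids, which act through the receptor Nr3c1.

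Male astrocyte nuclei held 3517544 UMIs and female ones 5086633, at medians of 3257 and 3241 UMIs and of 1874 and 1802.5 genes per nucleus. Depth was thus similar between the astrocytes of both libraries, under the limit of 8000 UMIs that the rule itself set. That limit left out 396 male and 318 female nuclei. All other nuclei had no such limit, so their medians of 5044 and 2893 UMIs are not a like comparison. The median mitochondrial share was 1.36% for male and 1.67% for female astrocytes. Of 101 barcodes found in both libraries, 0 were astrocytes in both. Stra8 had 0 UMIs in male and 2 UMIs in female astrocytes, and 0.0302 and 0.0392 CPM (the usual CPM unit, in which the UMIs of a gene are scaled so that each group of nuclei has the same total) in all other nuclei. A count that low cannot show the deletion, since no control library was analysed here, and the sources used here do not say which exons were removed. Sex-linked genes went with the labels, with Xist at 0.284 CPM in male and 2929 CPM in female astrocytes and Eif2s3y at 160 CPM and 0 UMIs. Since each group is 1 library, nothing here was tested for significance, and the sex of the mice cannot be told apart from the animal or the preparation. Every interval is a 95% interval of counting error alone. In sums over nuclei, fewer astrocytes with a transcript and less of it per astrocyte cannot be told apart.

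The label was checked with 30 astrocyte genes that the rule had not used. Of these, 27 had at least 4-fold more CPM in the astrocytes than in all other nuclei in both libraries, and 29 at least 2-fold, where 3.41% and 11.7% of all 8267 measured genes did. None of the 30 was at least 2-fold lower, as 6.76% of all genes were. The glutamate transporter Slc1a2 stood at 6134 CPM in male astrocytes (6052 to 6216) and at 6974 CPM in female astrocytes (6902 to 7047), against 654 and 696 CPM in the other nuclei. Its partner Slc1a3 reached 1482 and 2031 CPM, 11.1-fold and 11.8-fold the level of the other nuclei. Glypican 5 (Gpc5), a heparan sulphate proteoglycan of the cell surface, reached 5809 and 7461 CPM. Each of these 3 genes stood far above the other nuclei in both libraries. The gene of the 30 that did not stand out was the phosphatase subunit Ppp2r3a, at 143 and 195 CPM, or 0.984-fold and 1.00-fold the other nuclei; oligodendrocyte-like nuclei held 388 and 647 CPM of it. The rule and this check use the same nuclei, and a nucleus picked for some astrocyte genes tends to hold others, so these ratios describe the selection and were not tested.

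**Figure D1:**
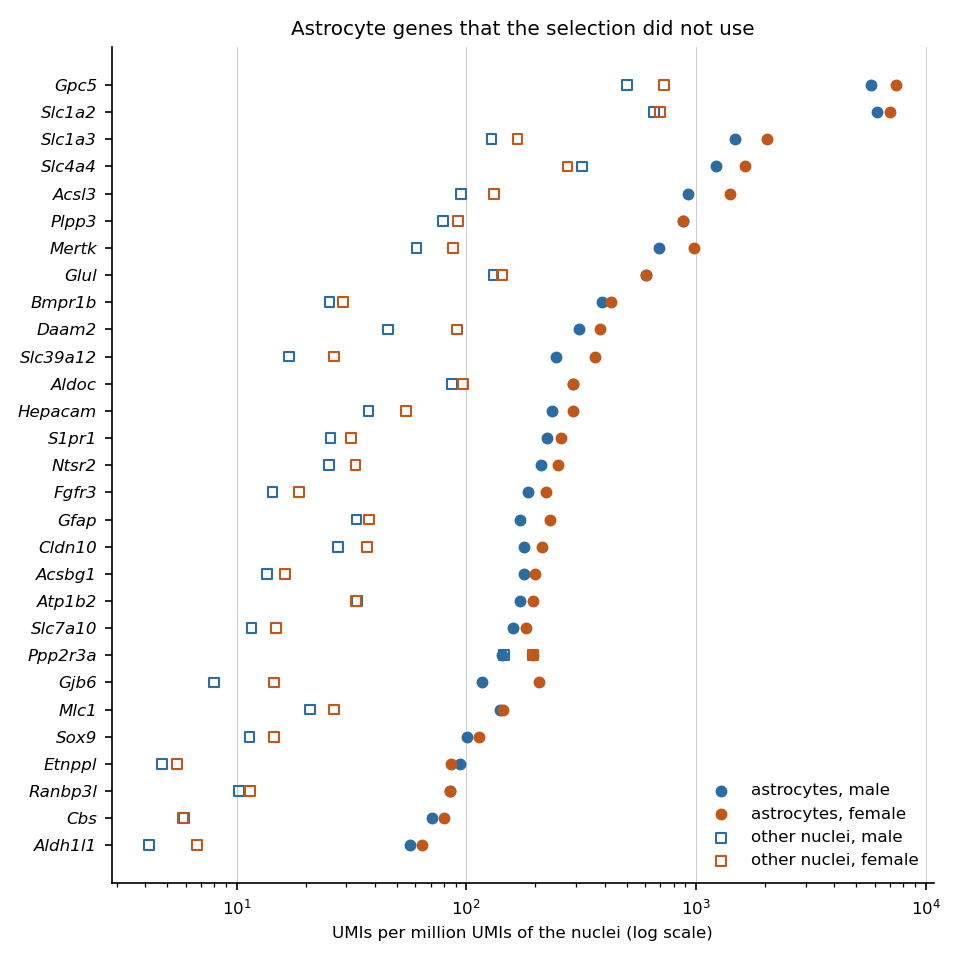
Level of 29 of the 30 astrocyte genes that the selection did not use, in CPM on a log axis, in astrocytes (filled circles) and all other nuclei (open squares) of the male (blue) and female (orange) library. Slc1a2 lies at 6134 and 6974 CPM in astrocytes, and Ppp2r3a is the one gene whose circles and squares coincide.

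Nuclei near the threshold were less rich in astrocyte RNA than the typical member. Those with exactly 5 marker UMIs in at least 3 genes (64 male and 140 female nuclei) had 4526 and 3903 CPM of Slc1a2. Those just outside, with 4 marker UMIs (50 and 134 nuclei), had 4537 and 2987 CPM, against 536 and 682 CPM in nuclei with at most 1 marker UMI. The limit of 8000 UMIs left out 396 male and 318 female nuclei that met the other conditions, and the oligodendrocyte limit left out 72 and 162; both kinds are counted here among the other nuclei. Of all genes with at least 20 CPM in astrocytes of both libraries, 281 of 7305 (3.85%) were at least 4-fold higher in astrocytes than in other nuclei in both libraries. Outside the rule, the noncoding RNA Gm6145 led them at 364 and 444 CPM, or 16.3-fold and 16.3-fold. Second was Nhsl1, at 529 and 684 CPM or 12.7-fold and 13.1-fold. Next came Bmpr1b, a receptor for bone morphogenetic proteins, at 391 and 426 CPM or 13.03-fold and 12.6-fold. Wdr17, at 3066 and 3213 CPM or 12.1-fold and 12.3-fold, was the fourth, and Rgs20, which shortens signalling by G proteins, the fifth at 715 and 664 CPM or 15.3-fold and 12.1-fold. Prdm16, a chromatin regulator of neural progenitors, reached 216 and 219 CPM. Phkg1, the catalytic subunit of phosphorylase kinase that starts glycogen breakdown, reached 305 and 274 CPM. Other genes among the 20 leading ones were the zinc transporter Slc39a12, the coagulation factor receptor F3, the glutamate receptor subunit Grin2c, the phagocytic receptor Mertk and the Rac activator Prex2. Mertk, at 693 and 980 CPM, was 10.6-fold and 10.7-fold above the other nuclei.

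Astrocytes made up 5.86% of the male nuclei (5.50 to 6.23, exact Clopper-Pearson) and 7.37% of the female nuclei (7.001 to 7.74), a ratio of 0.795 (0.731 to 0.864). The direction depended on the filter. With the quality limits set to 1000 genes and 1% mitochondrial UMIs the ratio was 1.06, and without the upper limit of UMIs it was 0.923.

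Most genes stood at similar levels in male and female astrocytes. Ratios are given on the log2 scale, male over female, after adding 5 CPM to both; a value of 1 is 2-fold, and the added 5 CPM makes ratios of low genes too small. Of the 8267 genes that reached 100 UMIs in all and 20 CPM in 1 of the libraries, 46 (0.556%) were at least 2-fold higher in male and 27 (0.327%) at least 2-fold higher in female astrocytes, together 0.883%. The median gene was at 0.07, and centring on it turned the split to 33 male-higher and 43 female-higher genes. Without the sex-linked check genes, 42 male-higher and 25 female-higher genes were left. All 42 and all 25 lay on the same side in the other nuclei too, 7 and 3 of them by at least 2-fold. The same shares over all genes are not given here, so these counts cannot be set against them. Of the 42, 0 were at least 2-fold higher in astrocytes than in other nuclei in both libraries, and of the 25, 8 were, beside 11.7% of all measured genes; the difference was not tested.

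The highest ratio was that of Ttr, which carries thyroid hormone and is known from the choroid plexus. Its level was 1291 CPM in male (1254 to 1329) and 124 CPM in female astrocytes (115 to 134), a log2 ratio of 3.33 (3.21 to 3.45). The other nuclei had 706 and 65.7 CPM of Ttr, which is the same ratio of 3.33, and oligodendrocyte-like and microglia-like nuclei had ratios of 3.60 and 3.50. Among the other choroid plexus markers, Kl was at 20.8 and 8.85 CPM, and Kcne2 had 4 male and 0 female UMIs. The 8 choroid plexus markers summed to 1379 and 167 CPM in astrocytes and to 827 and 189 CPM in the other nuclei. Behind Ttr came C1qtnf4 at 83.0 and 23.8 CPM (1.61, 1.34 to 1.88), and then several genes known from neurons. C1ql2, a synaptic organiser of granule neurons, was at 52.3 and 14.4 CPM (1.57, 1.24 to 1.88). Its relative C1ql3 was at 170 and 57.2 CPM (1.49, 1.30 to 1.68). Nptxr, a receptor for neuronal pentraxins that gathers glutamate receptors, was at 377 and 153 CPM (1.27, 1.15 to 1.40). In the oligodendrocyte-like nuclei, Nptxr stood at 331 and 158 CPM. The male astrocytes thus held more UMIs of these neuronal genes, and so did male nuclei of another glial class. Rprm, Trpc6, Cnnm1, C2cd2l, Slc8a2, Crtac1 and Basp1 completed the 12 highest, at ratios of 1.20 to 1.38. The summed level of the 8 pyramidal neuron markers was 3890 CPM in male and 2338 CPM in female astrocytes, with all 7 measured ones higher in the male. For the 8 granule neuron markers it was 724 and 623 CPM and for the 8 GABAergic markers 476 and 318 CPM, and no marker of these lists had 0 UMIs. Camk2a, the kinase abundant in excitatory neurons, was at 2344 and 1491 CPM in astrocytes and at 1350 and 1120 CPM in oligodendrocyte-like nuclei. Oligodendrocyte markers, in contrast, summed to 2234 and 2955 CPM, precursor markers to 277 and 288 CPM and microglia markers to 303 and 317 CPM. Endothelial markers summed to 19.0 and 70.0 CPM, with all 8 higher in the female and all 8 under 20 CPM. Pericyte markers summed to 85.3 and 98.1 CPM, fibroblast markers to 159 and 187 CPM and ependymal markers to 56.9 and 72.0 CPM. The part that RNA from other cells has in these differences was not tested.

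Highest in female relative to male astrocytes was the noncoding RNA B230323A14Rik. This gene (chromosome 9, 69758740 to 69830845, plus strand, mm10) had 2 male and 231 female UMIs, or 0.569 and 45.4 CPM, a ratio of -3.18 (-3.32 to -2.81). It overlaps Foxb1, a transcription factor gene on the opposite strand, which itself had 0 and 2 UMIs in astrocytes. Mamdc2, a secreted proteoglycan, was at 10.8 and 60.6 CPM (-2.05, -2.41 to -1.69). Rnf121, a ubiquitin ligase of the endoplasmic reticulum and Golgi, was at 34.1 and 143 CPM (-1.92, -2.17 to -1.66). These female levels were several-fold above the male ones, with intervals that did not overlap, but the genes were picked for their extreme ratios. Among all genes, 15.8% had a ratio interval wholly below 0 and 27.4% one wholly above 0. Of the 12 genes highest in the female, B230323A14Rik, Mamdc2, Vim, Fam43a, Gm29683, Slc6a9 and Polr3e passed the limit of 20 CPM only through the female library. Of the 12 highest in the male, C1ql2, Rprm, Cnnm1, C2cd2l and Crtac1 passed it only through the male library. Pdk4 and Ppp1r3g, named below, also passed it only through the female library. Txnip, which binds thioredoxin and curbs glucose uptake, was at 26.7 and 89.3 CPM (-1.57, -1.86 to -1.29). Fkbp5, a co-chaperone that dampens the glucocorticoid receptor and is itself switched on by it, was at 49.2 and 142 CPM (-1.44, -1.67 to -1.22). Vim, the intermediate filament vimentin, was at 11.9 and 39.3 CPM (-1.39, -1.75 to -1.02). Of these, Mamdc2 and Txnip were 5.66-fold and 5.55-fold higher in female astrocytes than in the other female nuclei, whereas Fkbp5 was 0.868-fold as high. Heph, an X-linked copper oxidase that loads iron for export, was at 24.4 and 66.3 CPM (-1.27, -1.57 to -0.98). C730002L08Rik was at 55.2 and 140 CPM (-1.27, -1.49 to -1.06). It lies on the opposite strand of Aldh1a1, the retinaldehyde dehydrogenase, which was itself at 156 and 325 CPM (-1.03, -1.17 to -0.90). Fkbp5 likewise overlaps Gm22146 on the other strand, which had 20 and 87 UMIs. The sources used here do not say whether counting used strand, so reads of overlapping genes cannot be told apart. Fam43a, Gm29683, the glycine transporter Slc6a9 and the RNA polymerase III subunit Polr3e completed the 12, at ratios of -1.37 to -1.24.

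**Figure D2:**
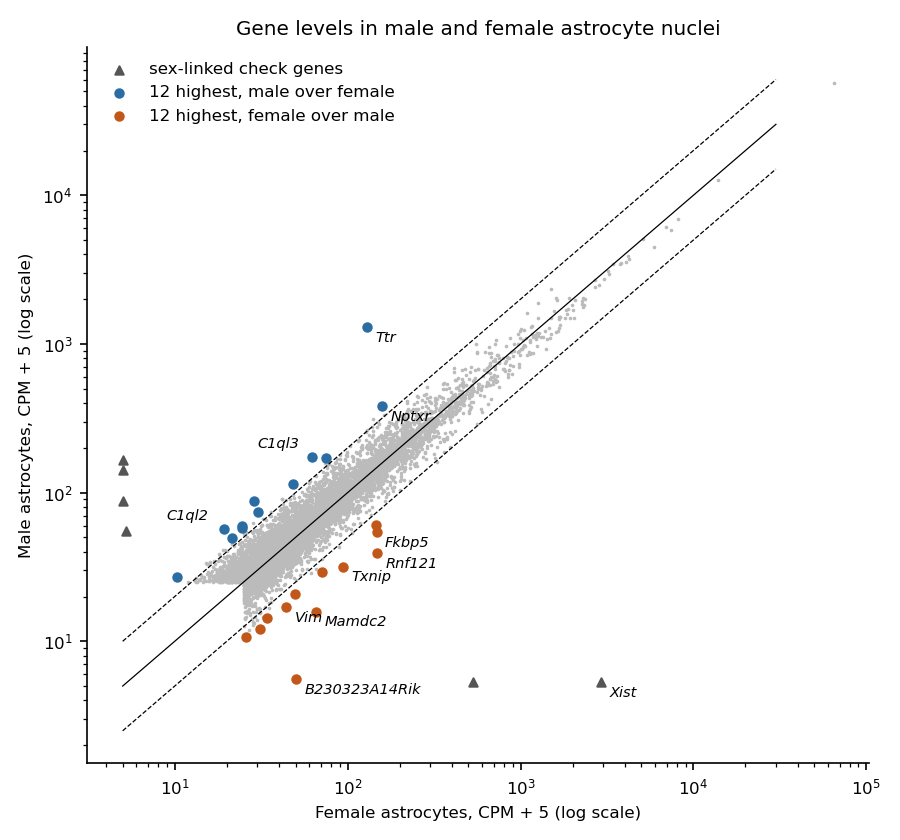
CPM plus 5 of 8267 genes in female (x axis) and male (y axis) astrocytes, both on log axes, with the line of equality and dashed lines at 2-fold. Blue and orange points mark the 12 genes highest in either direction, triangles the sex-linked check genes; apart from the triangles, Ttr lies farthest above the upper dashed line and B230323A14Rik farthest below the lower one.

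Targets of the glucocorticoid receptor were higher in female astrocytes as a group. Of 26 such genes, 19 were measured; 18 of these were higher in the female, 16 with an interval wholly below 0, and the list median was -0.70. Among all genes 41.2% were higher in the female, 15.8% had such an interval and the median was 0.07. Besides Fkbp5, the list held 2 more genes past 2-fold. Mfsd2a, a transporter of lysophospholipids that carry omega-3 fatty acids, was at 23.6 and 56.6 CPM (-1.11, -1.42 to -0.80). Mfsd2a is also known from brain endothelium, whose markers were higher in the female astrocytes too. Without the sub-clusters that carry markers of other types, Mfsd2a was at 27.0 and 66.6 CPM (-1.16, -1.52 to -0.80). The endothelial markers then summed to 9.15 and 13.04 CPM, a fall set by how those sub-clusters were picked. What part endothelial RNA has in the Mfsd2a ratio was not tested. Nfkbia, the inhibitor that holds NF-kappa-B in the cytoplasm, was at 38.4 and 83.7 CPM (-1.03, -1.29 to -0.78). Male and female intervals did not overlap in either gene, but both were named because they passed 2-fold. Smaller ratios were found for the transcription factors Zbtb16 at 197 and 324 CPM (-0.70) and Tsc22d3 at 92.7 and 167 CPM (-0.82). Among metal-binding and metabolic targets, metallothionein 2 (Mt2) was at 252 and 388 CPM (-0.62) and Pdk4, which shuts pyruvate out of the citric acid cycle, at 17.3 and 33.4 CPM (-0.78). Glutamine synthetase (Glul), which the receptor is also known to induce, was at 608 and 605 CPM, a ratio of 0.01 whose interval of -0.07 to 0.09 includes 0. Per1 and Bcl6 had intervals that include 0 as well. Below the filter, the cell-cycle inhibitor Cdkn1a had 6 male and 83 female UMIs.

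The same list was lower in the male library outside the astrocytes too, with a median of -0.49 in all other nuclei, -0.58 in oligodendrocyte-like and -0.41 in microglia-like nuclei. Fkbp5 was at 414 and 1466 CPM in microglia-like and at 88.2 and 271 CPM in oligodendrocyte-like nuclei, so its difference was seen in each of these glial classes. The receptor gene itself went the other way in astrocytes, with Nr3c1 at 133 and 104 CPM (0.34, 0.16 to 0.51). Its mineralocorticoid relative Nr3c2 was at 509 and 463 CPM (0.13, 0.05 to 0.22), and Hsd11b1, which regenerates active corticosterone inside the cell, at 54.6 and 41.1 CPM (0.37, 0.11 to 0.63). Of 9 measured corticosteroid receptor genes and cofactors, 8 were higher in male astrocytes, where 58.8% of all genes were, and the list median was 0.13 (0.22 in the other nuclei). The sources used here do not state the time of day of the dissections, and its part in these values was not tested. Within each of 5 sub-clusters of astrocytes described further on that both libraries filled and that stayed under the limit set there for markers of other cell types, Fkbp5, Mfsd2a, Nfkbia, Tsc22d3 and Zbtb16 were all higher in the female library, Fkbp5 by -2.46 to -0.92, where the smallest ratio rests on 2 male and 12 female UMIs and its interval includes 0. One of the 5 was led by neuronal genes, and Fkbp5 was at 23.7 and 74.9 CPM in it. Sgk1 was higher in the female in 3 of the 5.

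**Figure D3:**
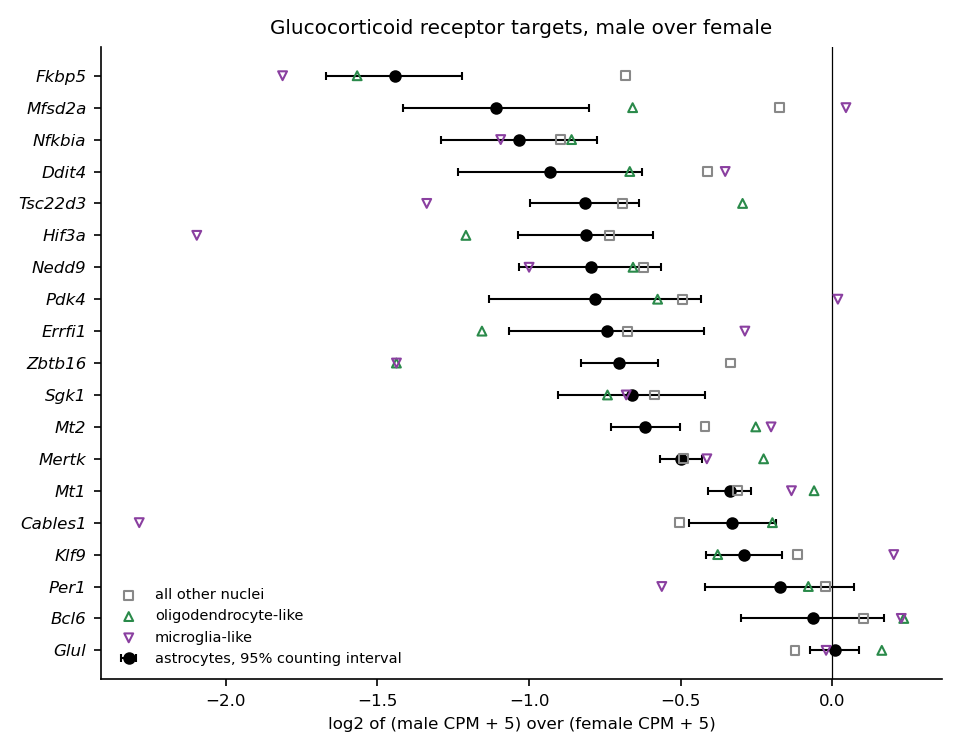
Log2 ratio of male over female CPM (each plus 5) for the 19 measured glucocorticoid receptor targets in astrocytes (black, with 95% counting intervals), all other nuclei, oligodendrocyte-like and microglia-like nuclei. Astrocyte values run from -1.44 for Fkbp5 to 0.01 for Glul, and 18 of 19 lie left of 0.

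The receptor binds DNA as a pair at an inverted repeat, so promoters of these genes are shown with that repeat in capitals. The windows start 250 bases before the start site, run 5′ to 3′ on the plus strand and come from RefSeq on GRCm38.p6, the same assembly as mm10. The full repeat searched was AGAACA and TGTTCT with any 3 bases between, and the relaxed one GNACA and TGTNC with the same gap. Each is its own reverse complement, so both strands are covered, and the search ran to 50 bases past the start. The full repeat includes the relaxed one. The relaxed repeat was in 156 of 32851 promoter windows (0.475%) and in 3 of the 23 list genes with a window, which were Sgk1, Mt1 and Map3k6. The full repeat was in 3 of all windows (0.00913%), and Sgk1 was the only list gene among them. Txnip, not a member of the list, also held the relaxed repeat.
Sgk1: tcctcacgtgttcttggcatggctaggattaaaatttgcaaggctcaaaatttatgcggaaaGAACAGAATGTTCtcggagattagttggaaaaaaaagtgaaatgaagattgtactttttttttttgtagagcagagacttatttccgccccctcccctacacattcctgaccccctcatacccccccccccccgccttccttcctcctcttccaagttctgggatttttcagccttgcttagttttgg
Mt1: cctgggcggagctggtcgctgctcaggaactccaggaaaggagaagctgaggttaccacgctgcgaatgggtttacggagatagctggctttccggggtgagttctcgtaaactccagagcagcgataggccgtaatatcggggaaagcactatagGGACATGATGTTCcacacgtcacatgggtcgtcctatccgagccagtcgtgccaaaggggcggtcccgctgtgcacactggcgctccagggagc
Txnip: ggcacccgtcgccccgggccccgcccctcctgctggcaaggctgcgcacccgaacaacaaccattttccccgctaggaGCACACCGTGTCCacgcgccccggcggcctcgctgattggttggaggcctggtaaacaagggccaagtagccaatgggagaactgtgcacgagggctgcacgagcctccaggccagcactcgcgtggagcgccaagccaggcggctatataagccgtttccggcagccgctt
The Sgk1 window is chr10:21993640-21993889, that of Mt1 chr8:94178839-94179088 and that of Txnip chr3:96557707-96557956, and the repeats begin 188, 94 and 172 bases before the start site. Sgk1, a kinase that regulates ion channels, was at 48.9 and 80.2 CPM in astrocytes (-0.66, -0.90 to -0.42), and lower there than in oligodendrocyte-like nuclei (329 and 553 CPM). Metallothionein 1 (Mt1), which binds zinc, was at 709 and 897 CPM (-0.34, -0.41 to -0.27). Map3k6 had under 1 CPM in both libraries. A match is a description of these letters and not a binding site.

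Genes of transmitter clearance differed in both directions. Of 17 measured genes for the uptake and metabolism of glutamate, GABA and glycine, 11 were higher in female astrocytes, beside 41.2% of all genes. The list median was -0.08 (-0.09 in the other nuclei). The GABA transporter Slc6a11 was at 167 and 314 CPM (-0.89, -1.03 to -0.76), and the glycine transporter Slc6a9 at 9.38 and 29.3 CPM (-1.25, -1.64 to -0.86). Both gaps were smaller without a set of mostly female nuclei described further on. The glutamate transporters Slc1a3 (-0.45) and Slc1a2 (-0.19) had smaller female-higher ratios. On the male side stood Gldc, the glycine decarboxylase of the glycine cleavage system, at 236 and 179 CPM (0.39, 0.26 to 0.53), and Slc7a11, which exchanges cystine for glutamate, at 229 and 170 CPM (0.41, 0.28 to 0.55).

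Genes of potassium, water and ion balance and of the endfoot were mostly higher in female astrocytes, by small ratios. The potassium channel Kcnj10 was at 67.4 and 109 CPM (-0.65, -0.86 to -0.44), and the bicarbonate transporter Slc4a4 at 1226 and 1638 CPM (-0.42, -0.47 to -0.36). In all, 13 of 19 measured ion genes and 9 of 13 endfoot and gap junction genes were higher in the female, beside 41.2% of all genes. Their medians were -0.17 and -0.15. In all other nuclei the medians of these lists were -0.20 and -0.27, so the female-higher side was not limited to astrocytes. The 30 astrocyte genes outside the rule leaned the same way, with 26 higher in the female. Their median was -0.19 (-0.26 in the other nuclei). The ion, endfoot, uptake, lipid and phagocytosis lists share members with these 30, so they are not separate results. The connexin Gjb6 was at 117 and 208 CPM (-0.80, -0.96 to -0.64). Its partner Gja1, used by the selection, was at 351 and 499 CPM (-0.50), and Aqp4, also used, at 251 and 309 CPM (-0.29). Dystrophin (Dmd), which anchors the endfoot to the vessel wall, was at 957 and 1244 CPM (-0.38), while the junction scaffold Tjp1 (-0.04) had an interval that includes 0.

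Of 20 measured genes of glucose, lactate and glycogen use, 14 were higher in the female, beside 41.2% of all genes. The list median was -0.26 (-0.11 in the other nuclei). The glycogen-targeting phosphatase subunit Ppp1r3g was at 11.4 and 24.97 CPM (-0.87, -1.26 to -0.48), and Gpt2, which links alanine to pyruvate, at 69.9 and 108 CPM (-0.59). Ldha and the monocarboxylate transporter Slc16a7 were on the male side, at 0.50 and 0.63. Lipid genes were one-sided, with 22 of 25 higher in the female and a median of -0.15, against -0.16 in the other nuclei. The cholesterol exporter Abca1 was at 162 and 279 CPM (-0.76, -0.90 to -0.62) and the fatty acid activating enzyme Acsl3 at 920 and 1400 CPM (-0.60, -0.66 to -0.54). Apoe, the main lipid carrier of the brain, was at 2677 and 2684 CPM, a ratio of 0.00 (-0.04 to 0.03). Genes of cholesterol synthesis and turnover went the other way, with 16 of 20 higher in the male, where 58.8% of all genes were. Their median was 0.28 (0.07 in the other nuclei). Fdps, which makes farnesyl diphosphate, was at 34.4 and 20.4 CPM (0.63, 0.30 to 0.96). Srebf2, the factor that switches on this pathway, was at 120 and 90.4 CPM (0.39, 0.20 to 0.57), and the synthase Hmgcs1 at 114 and 88.3 CPM (0.35, 0.17 to 0.54). Without the upper limit of UMIs, the median of the cholesterol list was 0.01.

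Developmental signalling genes also split. Hes5, an effector of Notch, was at 45.2 and 21.2 CPM (0.94, 0.63 to 1.24), the largest male-higher ratio among the signalling genes. Id1, an effector of bone morphogenetic proteins, was at 31.0 and 59.2 CPM (-0.83, -1.12 to -0.55), and its relative Id2 at 169 and 268 CPM (-0.65, -0.79 to -0.51). Of 25 measured genes of Notch, Hedgehog, BMP and FGF signalling, 19 were higher in the female, beside 41.2% of all genes. The list median was -0.13 (-0.17 in the other nuclei). Among 29 glial transcription factors, 21 were higher in the female, with a median of -0.11 (-0.12 in the other nuclei). Nfix, a nuclear factor I protein of gliogenesis, stood on the male side, at 222 and 145 CPM (0.59, 0.45 to 0.73), and it had a ratio of 0.68 in other nuclei.

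Secreted and surface proteins that act on synapses had 14 of 26 higher in the female, beside 41.2% of all genes. Their median was -0.15 (-0.11 in the other nuclei). Sparc, which limits synapse growth, was at 66.0 and 131 CPM (-0.94, -1.15 to -0.74). Gpc4, which recruits glutamate receptors, was at 48.6 and 26.7 CPM (0.76, 0.46 to 1.05), and it was less abundant in astrocytes than in other nuclei in both libraries. The teneurin Tenm2, at 862 and 554 CPM (0.63), was likewise below the other nuclei, at 0.214-fold and 0.158-fold their level. Transmitter and hormone receptors had 14 of 26 higher in the male, beside 58.8% of all genes, and a median of 0.06, close to that of all genes. The adrenergic receptor Adra1a was at 45.2 and 69.6 CPM (-0.57, -0.82 to -0.32), while Grm3, the metabotropic glutamate receptor of adult astrocytes, was at 894 and 918 CPM (-0.04, -0.10 to 0.03).

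Of 14 measured genes of phagocytosis and debris uptake, 10 were higher in the female, all 10 with an interval wholly below 0. Among all genes these shares were 41.2% and 15.8%. The list median was -0.37 (-0.21 in the other nuclei), and -0.16 (-0.53 to 0.18) after thinning to 1000 UMIs per nucleus. Mertk also counts among the glucocorticoid targets and the astrocyte genes outside the rule, and Abca1 among the lipid genes. Mertk, the receptor for dying cell fragments, was at 693 and 980 CPM (-0.50, -0.57 to -0.43). The engulfment receptor Megf10 was at 170 and 229 CPM (-0.42, -0.56 to -0.28). Reactive astrocyte genes were mostly below the filter, with 7 of 40 measured and a median of -0.42 (-0.28 in the other nuclei). Gfap, the filament protein of reactive and fibrous astrocytes, was at 172 and 231 CPM (-0.42, -0.56 to -0.28). Complement C4b was at 46.1 and 33.8 CPM (0.40, 0.11 to 0.68). Lcn2, an acute reactive marker, had 0 UMIs in male and 1 UMI in female astrocytes. Of the 7, Vim was past 2-fold.

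Thyroid hormone and retinoid genes had 10 of 25 measured and a median of 0.20 (0.06 in the other nuclei), with the largest ratios on the female side. Dio2, the deiodinase that makes active thyroid hormone, was at 71.6 and 128 CPM (-0.80), and it overlaps the noncoding Gm26512 on the opposite strand. The nuclear receptor Thra was at 357 and 244 CPM (0.54, 0.43 to 0.65). Core clock genes had 9 of 14 higher in the male, close to the 58.8% of all genes (median 0.17, and 0.20 in the other nuclei). Per2 was at 45.8 and 31.7 CPM (0.47, 0.18 to 0.76) and Arntl at 120 and 104 CPM (0.19, 0.01 to 0.37). X-linked genes that escape inactivation had 6 of 8 higher in the female, beside 41.2% of all genes. The demethylase Kdm6a led them at 82.4 and 160 CPM (-0.92, -1.10 to -0.73).

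**Figure D4:**
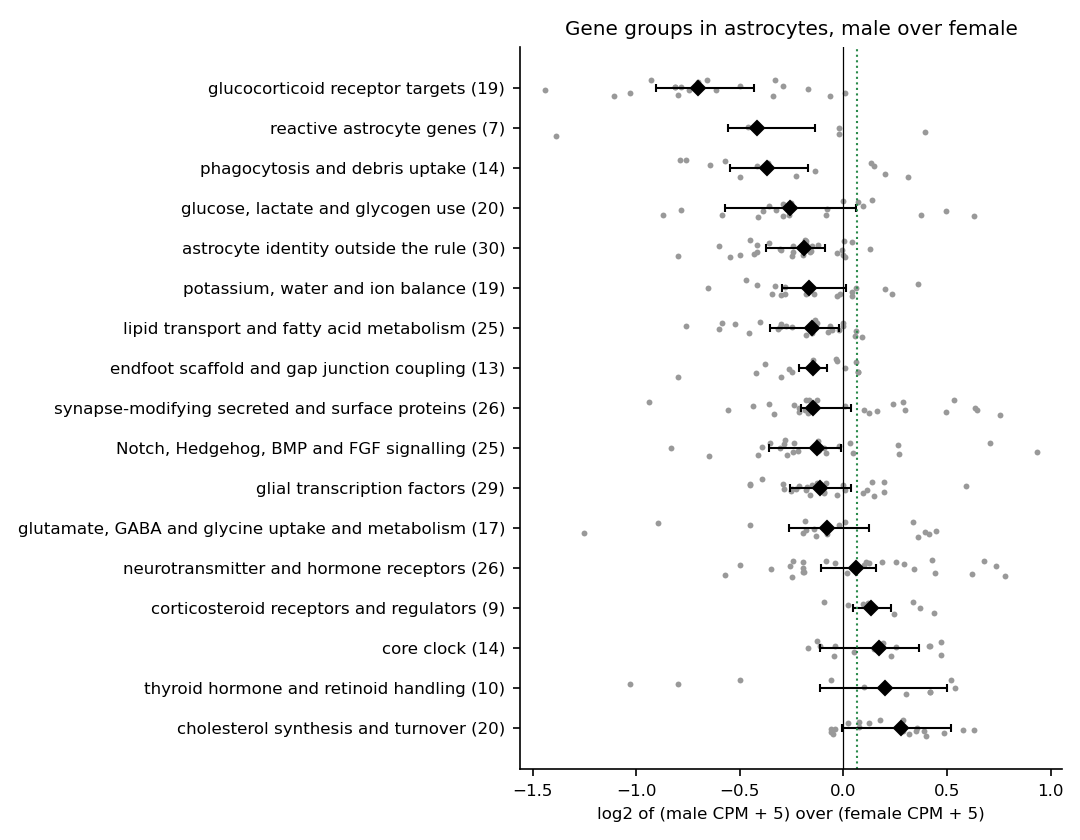
Log2 ratio of male over female CPM (each plus 5) in astrocytes for 17 gene groups, with the number of measured genes in brackets. Grey points are genes, diamonds the group medians, bars the medians of the genes' interval bounds, and the dotted line the median of all 8267 genes at 0.07; glucocorticoid receptor targets lie lowest at -0.70 and cholesterol genes highest at 0.28.

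Astrocytes were not uniform. Clustering the 2357 nuclei gave 12 sub-clusters, and 6 of these carried at least 3 markers of another cell type at 3-fold or more over the rest, namely of oligodendrocyte precursors, fibroblasts, endothelium, granule neurons, microglia and ependyma. They held 546 nuclei, 23.5% of the male and 22.9% of the female astrocytes, and Scrublet, a doublet caller, marked 67.4% of the nuclei in the sub-cluster with microglial markers and 44.4% of those in the one with endothelial markers. Over all astrocytes it marked 8.95% (male) and 7.33% (female), and these nuclei were kept. Leaving out the 6 sub-clusters moved the count of genes at least 2-fold higher in the male from 46 to 90 and gave 27 for the female. Without them the ratio of Fkbp5 was -2.19 (-2.56 to -1.83).

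Among the other 6 sub-clusters, the largest had 565 nuclei and was led by Nat8f3 and Luzp2, with Gpc5 at 10240 CPM. Another of 536 nuclei was led by the activity-regulated gene Arc and by Ddn and Cabp7, and had 3323 CPM of Camk2a against 1453 CPM in the rest. It also had 446 CPM of Nptxr against 192 CPM, and 7571 CPM of Slc1a2 against 6386 CPM. These neuronal genes stayed under the limit of 3-fold, so the sub-cluster was not left out with the other 6. A sub-cluster of 329 nuclei was led by the thrombospondin Thbs4, a secreted protein that promotes synapse formation, with Gfap at 329 CPM. One of 100 nuclei had the highest Gfap among these 6, at 789 CPM against 182 CPM in the rest of the astrocytes, together with Myoc at 314 CPM, Aqp4 at 1212 CPM and Vim at 199 CPM. A further one of 153 nuclei was led by Gm49164, Tfcp2l1 and the laminin chain Lama3. These genes defined the sub-clusters and are given as a description, and sizes are not compared between libraries, since a sub-cluster that comes mostly from 1 library may be that library and not a type.

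One sub-cluster of 128 nuclei stood apart by its regional genes. Only 1 of its nuclei was male and 127 were female, and the same group was found at coarser and finer clustering (127 nuclei with 1 male, and 128 with 1 male). It was led by B230323A14Rik at 445 CPM against 4.90 CPM in the rest. The GABA transporter Slc6a11 reached 1054 CPM against 211, the glycine transporter Slc6a9 104 CPM against 16.8, angiotensinogen (Agt) 159 CPM against 27.4 and Itih3 185 CPM against 29.5. Lhx2, a transcription factor of the telencephalon, from which the hippocampus forms, was lower there, at 34.6 against 94.9 CPM. High Agt, Slc6a9, Slc6a11 and Itih3 with low Lhx2 is known from astrocytes outside the telencephalon; which tissue these nuclei came from was not tested. Leaving this sub-cluster out moved Slc6a9 from -1.25 to -0.93 and Slc6a11 from -0.89 to -0.54. It moved B230323A14Rik to -1.44, where the fitted value depends on the added 5 CPM. Fkbp5 was at -1.41 and Vim at -1.47 without it.

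**Figure D5:**
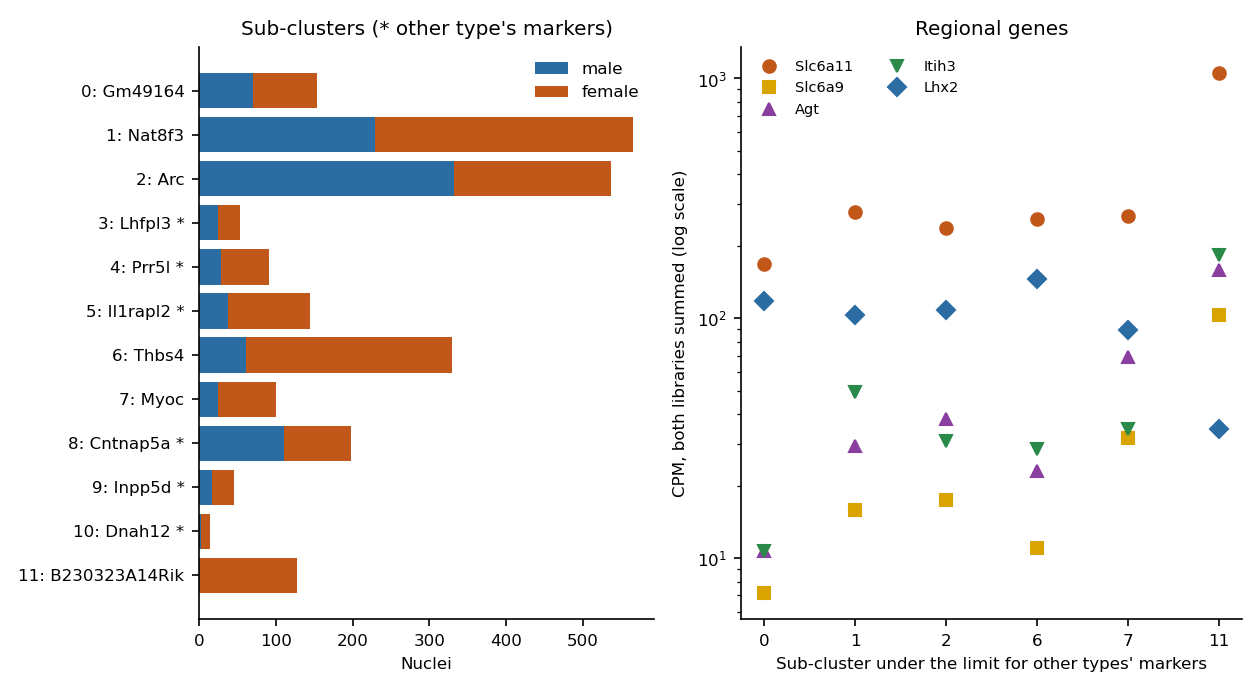
Left, nuclei per sub-cluster of astrocytes from the male (blue) and female (orange) library, with an asterisk where at least 3 markers of another cell type reached 3-fold over the rest. Right, CPM on a log axis of 5 regional genes in the sub-clusters under that limit, both libraries summed; in sub-cluster 11 Slc6a11 reaches 1054 CPM while Lhx2 is at 34.6 CPM.

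A list of 9 non-telencephalic genes was also read, without clustering. It holds genes named above for the sub-cluster led by B230323A14Rik, such as Itih3, and uses the same nuclei. It is thus no separate support for that sub-cluster. Nuclei with at least 2 UMIs spread over at least 2 of these genes made up 2.34% of the male astrocytes (22 of 939, 1.47 to 3.53) and 6.77% of the female ones (96 of 1418, 5.52 to 8.20). Thinned to 1000 UMIs per nucleus, which left out 3 female nuclei, the shares were 0.319% and 1.34%. In oligodendrocyte-like nuclei the shares were 0.620% and 0.674% before thinning, at median depths of 1973 and 2092 UMIs. These nuclei are not an empty background. The list summed to 64.4 and 76.7 CPM in them, against 75.3 and 135 CPM in astrocytes, and Slc6a9 alone was at 47.2 and 50.7 CPM. The female nuclei so picked had 716 CPM of Slc6a11 against 280 in the other female astrocytes and 63.3 CPM of Lhx2 against 97.0. In the male ones, Slc6a11 was at 272 against 163 CPM and Lhx2 at 126 against 87.0 CPM, from 28 and 13 UMIs. Among the list's 9 genes 3 were measured over all astrocytes, all 3 higher in the female, where 41.2% of all genes were. Of 5 measured telencephalic genes 4 were higher in the male, where 58.8% of all genes were. Of the 5, 1 had an interval wholly above 0, where 27.4% of all genes did. Their median was 0.14 (0.35 in the other nuclei). The whole list summed to 1103 and 1040 CPM in astrocytes, against 4561 and 5360 CPM in the other nuclei.

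Gfap was used to split the astrocytes, since it is known to mark a subset of them in the hippocampus. At least 1 Gfap UMI was found in 38.8% of male (35.6 to 42.0) and 44.6% of female astrocytes (42.0 to 47.2), and in 14.8% and 18.7% after thinning to 1000 UMIs. Oligodendrocyte-like nuclei, which should lack Gfap, had such a UMI in 19.2% and 15.4% of cases at a lower median depth, and 87.8 and 68.8 CPM against 172 and 231 CPM in astrocytes. Nuclei with a Gfap UMI were also deeper, at 3529.5 against 2982 UMIs in the male and 3446.5 against 3095.5 in the female library. Of 7663 genes, 1 (0.013%) was at least 2-fold higher with a Gfap UMI in both libraries and 0 (0%) at least 2-fold lower, while 57.6% had the same sign in both. That gene was myocilin (Myoc), at 59.7 against 3.88 CPM in the male and 26.3 against 4.46 CPM in the female library, or 2.87 and 1.72 log2 units. Id1 came next, at 1.15 and 1.00 (48.1 against 18.9 CPM and 82.1 against 38.7 CPM). Igfbp5, a binder of insulin-like growth factors, was at 281 against 163 CPM and 257 against 127 CPM. Reln, Id3 and Matn4 were higher with a Gfap UMI by 0.70 to 0.89 in both libraries. On the other side, Tenm2 was at 650 against 1012 CPM and 414 against 679 CPM, and Zfp804b at 51.5 against 89.3 CPM and 51.3 against 84.5 CPM.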

How the data were processed

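The deposited values are whole-number UMI counts per gene and barcode, made by the authors (Cell Ranger 7.0.1, as the file headers state), after bcl2fastq 2.20.0.422 and on mm10 per the submitters' processing notes; droplet capture aimed at 10000 nuclei per sample, per the labels' protocols. Whether intronic reads were counted is not given in the sources used here. From the deposited counts, UMIs of the astrocyte nuclei were summed per library and expressed as CPM, with Python 3.11.15, scipy 1.17.1 and pandas 2.3.3. Libraries held 103262825 UMIs over 16174 barcodes (male) and 108286856 over 20150 (female). Intervals are exact Poisson for CPM, exact conditional binomial for ratios and exact Clopper-Pearson for shares, at 95%, and cover counting error only. The ratio code was tested on simulated counts. Genes counted had at least 100 UMIs and 20 CPM; members of lists needed 20 UMIs and 20 CPM, which gave the same 8267 genes. Positions and gene types come from GENCODE vM21.

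Sub-clusters came from scanpy 1.11.5 (1500 variable genes, 20 components, 15 neighbours, Leiden at resolution 0.6), without integration. Doublets were called with Scrublet per library but kept: its own threshold marked 9.57% of male and 0% of female nuclei, so in the female library the top 8% of scores were taken, which marked 7.51%, and an alternative left them out. Oligodendrocyte-like nuclei had at least 3 UMIs in at least 2 of Mog, Mag and Aspa; microglia-like nuclei had at least 5 UMIs in at least 3 microglia markers and at most 1 in those genes. Both had at most 8000 UMIs and at most 1 astrocyte marker UMI.

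The astrocyte rule and the gene lists were chosen with earlier results of these data known. The text names the 12 genes highest each way between male and female, among the 20 genes highest in astrocytes over other nuclei, 3 highest, 3 lowest and 5 most abundant genes of each list with any past 2-fold, and 8 genes each way of the Gfap split. Outside this rule, Foxb1, Cdkn1a, Kcne2, Lcn2, Sgk1, Tsc22d3, Map3k6, Ppp2r3a and the genes that lead the sub-clusters were named after their values were seen. A count of 0 allows up to 3 counts. Some genes of the lists are counted but not reported here by name. No test was run, as each group is 1 library.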

Additional observations from a re-analysis of the deposited data

How the results depend on the processing

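No paired analysis was possible because each group is 1 library, and for the same reason no library was left out. The alternatives that leave out sub-clusters were chosen after seeing the data. The cause of each change was not tested, beyond what an alternative's own construction sets. Values were counted once for each alternative in which they were taken. Of the list medians so counted, 329 stayed inside their first interval and 22 left it. Of the counts and the share ratio 36 held and 37 moved. Of the ratios of single named genes, 3401 stayed inside their first interval and 755 left it. With limits of 1000 genes and 1% mitochondrial UMIs, 117 of these ratios left it and 144 stayed. With no UMI limit, 112 left it and 149 stayed. The ratio of astrocyte shares reversed to 1.06 when the quality limits were 1000 genes and 1% mitochondrial UMIs. It was 0.708 over nuclei of at least 1000 genes, 0.670 without Rorb, 0.923 without an upper UMI limit, 0.872 without the regional sub-cluster and 0.891 also without the sub-clusters with other markers. The count of genes 2-fold higher in the male, 46, became 109 with at least 8 marker UMIs, 75 without Rorb, 22 with no UMI limit, 70 with no Mog, Mag or Aspa UMI, 26 after thinning, 101 and 12 with 1 and 20 CPM added, 27 at 50 CPM or more, 90 without the sub-clusters with other markers and 86 without these and the regional one. The female count, 27, became 52 with no UMI limit, 53 and 8 with 1 and 20 CPM added, 52 with no filter, 12 at 50 CPM or more and 43 when centred on the median gene. The 281 genes 4-fold higher in astrocytes became 154 with no UMI limit and 127 with 20 CPM added. The 1 gene of the Gfap split became 4 with at least 3 marker UMIs, 2 with at least 8, 0 without Rorb, with no UMI limit, with 20 CPM added and at 50 CPM or more, 3 with the stricter quality limits, 5 after thinning, and 2 without Scrublet calls, with 1 CPM added, with no filter and in each of the runs without sub-clusters.

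With no UMI limit the medians were -0.42 for astrocyte identity, -0.27 for glutamate, GABA and glycine, -0.31 for ion balance, -0.25 for endfeet, -0.32 for transcription factors, -0.60 for phagocytosis, -0.25 for thyroid hormone and retinoids (reported as 0.20) and -0.50 for subtypes. The endfoot median was -0.067 with at least 3 marker UMIs, -0.23 with at least 8, -0.075 with the stricter quality limits, -0.25 with no filter and -0.22 when centred. Centring gave -0.21 for the synapse list, and thinning -0.16 for phagocytosis. The radial glia median was -0.19 with the stricter quality limits and -0.17 with no filter, which gave -0.10 for reactive genes. Corticosteroid receptors had 0.25 without the sub-clusters with other markers and 0.29 without the regional one too, and non-telencephalic genes -0.31 and -0.13 without the regional sub-cluster alone and without both. The glucocorticoid target median ran from -0.77 to -0.54 over all alternatives.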
